A study of Mus musculus with 16 samples.

Results

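In wild-type endosteal stroma, 390 of 3789 autosomal promoters (10.3%; 3925 promoters were measured on all chromosomes) carried high H3K27me3 together with appreciable H3K4me3, and are called bivalent here. They were chosen from the mean of the 2 wild-type libraries of each mark, as the promoters in the top 25% of H3K27me3 (above 121 CPM) that also lay above the 35th percentile of H3K4me3 (above 102 CPM). CPM is the count scaled to a total of 1000000 over all autosomal bins of the measured windows, and a promoter is the 4 kb within 2 kb of a gene start. These levels chose the promoters and support no result below. Symbols were assigned to 359 of the 390.

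Chromatin immunoprecipitation and sequencing (ChIP-seq) was done on endosteal mesenchymal stromal cells, the connective tissue cells that line the inner bone surface, from C57BL/6J mice. The controls (WT) were labelled wild type and carried floxed Bap1 alleles (Bap1fl/fl), and the conditional knockouts (cKO) were Prx1-cre;Bap1fl/fl. Prx1-cre is active in limb bud mesenchyme and its descendants, so deletion is restricted to cells of that lineage, and any other cells in the preparation would keep Bap1. H2AK119ub1, H3K27me3, H3K4me3 and H3K27ac were each measured in 2 libraries per genotype, 16 in all, with 429493 to 3371063 reads in the measured windows. Bap1 itself is not analysed here. Neither the age nor the sex of the animals is stated. By edgeR, H2AK119ub1 was called lower in cKO at 636 of 3889 promoters on all chromosomes, and at 516 of 3757 on autosomes. The 651 promoters called higher were all autosomal. Whether the genotypes differed in sex was not tested, and such a difference could not be told apart from genotype. In the antibody field, the libraries with H3K4me3 in the title name an H3K27ac antibody and the reverse, and the titles were followed here. The sources used here do not say that replicates came from separate animals, so p-values measure the spread between libraries, which may be technical. With 2 libraries against 2, an exact permutation test cannot give a p below 0.33. Of 16 mesenchymal stromal markers measured, 12 lay above the H3K4me3 cut, with a median of 390 CPM in WT. By construction 65.0% of all autosomal promoters lie above this cut, so the count does not establish the cell type. Above it lay 1 of 4 blood markers (median 42.6 CPM), 1 of 2 endothelial markers (100.8 CPM) and the 1 osteoclast marker measured (123.5 CPM), while the 1 muscle and 1 neuronal marker lay below it. In cKO the stromal markers moved as well. By edgeR, H3K4me3 was lower at 13 of the 16 and higher at 2 (31.8% and 40.5% of all promoters). H3K27ac was lower at 12 and higher at 1 (29.1% and 30.9% of all promoters). The part of this in the results below was not tested.

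Bivalent promoters hold a repressive Polycomb mark and an activating Trithorax-group mark at once. They are best known in stem cells, at developmental regulators that are kept silent but can be switched either way, and they usually lie in CpG islands. PRC2 places H3K27me3, PRC1 places H2AK119ub1, BAP1 is the catalytic subunit of a deubiquitinase that removes H2AK119ub1, and H3K27ac marks active promoters and enhancers. Whether both marks lay on the same cells or alleles was not tested, and in bulk chromatin fewer cells carrying a mark cannot be told apart from less of the mark per cell.

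The bivalent promoters were rich in CpG. A RefSeq promoter sequence (GRCm38.p6) was matched for 260 of them, and the 250 bases before the start held a median of 20 CpG dinucleotides, against 13 at the H3K27me3-only promoters (558, same H3K27me3 cut, H3K4me3 at or below its cut), 18 at the H3K4me3-only promoters (2073), 6 at those with neither (768) and 15 over all autosomal promoters measured. In those classes a sequence was matched for 348 of the 558, 1506 of the 2073 and 384 of the 768 promoters, and over all autosomal promoters for 2498 of 3789. Only matched promoters enter the values here. The GC content was 66.8% at the median, above the medians of 61.6%, 62.0% and 53.6% in the other classes. By an observed-to-expected CpG ratio of at least 0.6 with a GC content of at least 55%, 68.5% of the bivalent promoters were CpG-island-like, against 46.8% of H3K27me3-only and 62.7% of H3K4me3-only promoters, 53.8% of all measured and 27.6% of the 32851 promoters in the RefSeq table. The median ratio itself was 0.749, and 0.753 at H3K4me3-only promoters. The Sp1-type GC box GGGCGG was found on either strand in 71.5% of them, against 67.7% of H3K4me3-only promoters and 61.6% of all measured, and the TATA sequence TATAAA in 3.08%, against 7.41%. CCAAT was found in 30.8%, against 35.7%. Matches of different motifs can share bases and were counted separately, and a match describes letters, not a bound factor.

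The sequences of 8 bivalent promoters are shown because their H3K27ac went opposite ways in the knockout. Each is the 250 bases before the RefSeq start (GRCm38.p6), read 5′ to 3′ on the gene's strand, with CpG dinucleotides in capitals. The first 4 gained H3K27ac in cKO: Jag1 (chr2:137116521-137116770 on the reverse strand, 20 CpG), a Notch ligand, Slit2 (chr5:47982905-47983154 on the forward strand, 25 CpG), a secreted guidance cue, Ntn4 (chr10:93640799-93641048 on the forward strand, 26 CpG), a netrin of basement membranes, and Pcdh7 (chr5:57717831-57718080 on the forward strand, 7 CpG), a protocadherin.
Jag1: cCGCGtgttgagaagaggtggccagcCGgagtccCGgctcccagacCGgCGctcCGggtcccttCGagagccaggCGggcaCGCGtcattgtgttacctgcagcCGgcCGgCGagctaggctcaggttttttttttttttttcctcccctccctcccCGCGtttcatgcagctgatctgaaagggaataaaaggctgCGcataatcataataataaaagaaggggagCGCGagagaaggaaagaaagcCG
Slit2: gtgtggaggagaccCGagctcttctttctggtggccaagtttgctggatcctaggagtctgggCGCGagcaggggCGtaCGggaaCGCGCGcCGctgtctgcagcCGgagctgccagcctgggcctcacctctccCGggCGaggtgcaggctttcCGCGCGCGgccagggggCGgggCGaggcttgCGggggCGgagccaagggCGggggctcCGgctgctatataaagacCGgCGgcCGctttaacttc
Ntn4: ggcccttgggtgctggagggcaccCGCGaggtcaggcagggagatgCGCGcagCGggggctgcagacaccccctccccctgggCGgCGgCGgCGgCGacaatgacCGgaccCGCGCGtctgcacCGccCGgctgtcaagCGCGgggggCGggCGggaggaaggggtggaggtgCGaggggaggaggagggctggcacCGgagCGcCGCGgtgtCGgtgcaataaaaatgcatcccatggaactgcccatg
Pcdh7: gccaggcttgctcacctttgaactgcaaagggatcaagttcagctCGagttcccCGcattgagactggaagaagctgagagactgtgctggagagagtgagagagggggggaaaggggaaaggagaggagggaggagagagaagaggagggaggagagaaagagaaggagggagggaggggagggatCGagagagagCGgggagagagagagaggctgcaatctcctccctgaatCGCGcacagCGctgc
The other 4 lost H3K27ac in cKO: Serpine2 (chr1:79858666-79858915 on the reverse strand, 34 CpG), a secreted protease inhibitor, Plxnd1 (chr6:115995006-115995255 on the reverse strand, 16 CpG), a semaphorin receptor, Cxcl12 (chr6:117168285-117168534 on the forward strand, 14 CpG), the chemokine that retains blood stem cells in marrow, and Rgs4 (chr1:169747643-169747892 on the reverse strand, 13 CpG), an inhibitor of G protein signalling.
Serpine2: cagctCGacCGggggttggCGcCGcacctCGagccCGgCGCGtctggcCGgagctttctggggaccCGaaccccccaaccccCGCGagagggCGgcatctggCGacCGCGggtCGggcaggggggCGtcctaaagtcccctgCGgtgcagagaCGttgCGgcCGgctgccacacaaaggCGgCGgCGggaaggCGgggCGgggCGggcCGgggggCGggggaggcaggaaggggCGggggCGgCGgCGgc
Plxnd1: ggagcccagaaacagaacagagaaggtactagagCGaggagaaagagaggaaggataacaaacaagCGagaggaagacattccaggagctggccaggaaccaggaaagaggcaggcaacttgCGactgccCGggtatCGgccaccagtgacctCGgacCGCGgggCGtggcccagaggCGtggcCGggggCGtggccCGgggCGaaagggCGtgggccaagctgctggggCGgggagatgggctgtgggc
Cxcl12: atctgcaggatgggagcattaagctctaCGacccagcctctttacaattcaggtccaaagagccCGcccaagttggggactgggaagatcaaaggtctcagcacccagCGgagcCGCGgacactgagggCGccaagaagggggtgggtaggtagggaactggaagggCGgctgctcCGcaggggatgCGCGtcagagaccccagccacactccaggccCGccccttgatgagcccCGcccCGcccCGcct
Rgs4: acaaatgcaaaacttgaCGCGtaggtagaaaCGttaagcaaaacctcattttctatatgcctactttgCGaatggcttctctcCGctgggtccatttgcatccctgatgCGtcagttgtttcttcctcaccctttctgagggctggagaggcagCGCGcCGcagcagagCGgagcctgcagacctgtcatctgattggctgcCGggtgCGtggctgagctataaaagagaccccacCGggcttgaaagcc
Both sets hold promoters of high and low CpG number, from 7 at Pcdh7 to 34 at Serpine2. Over all bivalent promoters with a sequence, the median was 22 CpG at those that gained H3K27ac (90), 18 at those that lost it (75) and 20 at the rest (95).

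**Figure D1:**
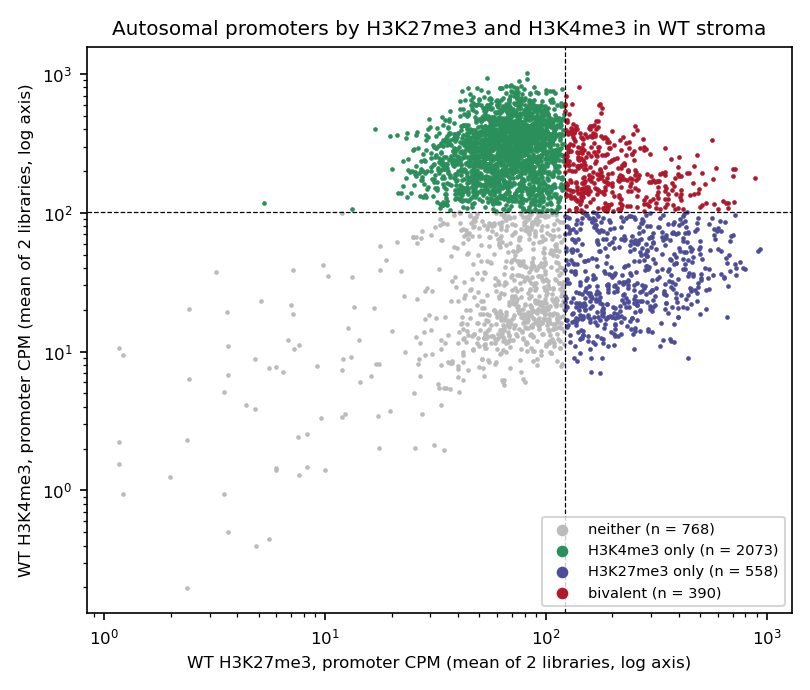
WT H3K27me3 (horizontal) against WT H3K4me3 (vertical) at 3789 autosomal promoters, each the mean of 2 libraries in promoter CPM on log axes, with the 2 cuts as dashed lines. The 390 bivalent promoters fill the upper right field and run on from the other classes without a gap.

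Nothing separated the bivalent promoters from their neighbours at the cuts. Zhx2, a zinc finger and homeobox repressor, had 121.5 CPM of WT H3K27me3 and was taken, and Mtcl1, a microtubule crosslinker, had 121.1 CPM and was not. At the other cut, Abca2, a lipid transporter, had 101.597 CPM of WT H3K4me3 and was inside, and Dhtkd1, a mitochondrial dehydrogenase subunit, had 101.563 CPM and was outside. Among the 390, WT H3K27me3 ran from 121 to 884 CPM (median 179) and WT H3K4me3 from 102 to 806 CPM (median 187). Promoters high in both were rare: Zfp423 (chr8:87957596-87961595), a regulator of fat cell commitment, had 96.5% of autosomal promoters below it in H3K4me3 and 85.1% in H3K27me3, and Atrnl1, an attractin-like membrane protein, 88.2% and 90.9%. Only 86 promoters passed both the top 15% of H3K27me3 and the median of H3K4me3. All 86 belong to the 390 by construction, since these cuts lie inside the first ones.

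The bivalent promoters were looked up in the gene lists, as a description with no test. Of the listed developmental transcription factors, 11 of 43 measured were bivalent (25.6%), as were 12 of 50 secreted signals and receptors (24.0%), 9 of 30 axon guidance genes (30.0%) and 6 of 26 channel, synaptic and neuronal adhesion genes (23.1%), against 10.3% of all autosomal promoters. The transcription factors were Hoxc11, Gata6, Foxf1, Foxf2, Lhx6, Dlx1, Otx1, Gli1, Gli2, Snai1 and Hey2. The shares were similar in the adipocyte (3 of 11), Polycomb machinery (2 of 9) and osteoblast lists (2 of 10). None of 5 cell cycle inhibitor and p53 genes, 2 housekeeping genes or 4 blood markers was bivalent.

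H2AK119ub1 libraries were not used in choosing the promoters, and the level there was high in WT and lower in cKO. The choice was still not independent of this mark, because it followed regional WT coverage. Chromosome 8, with the largest bivalent share, had H2AK119ub1 flanks of 67.8 CPM in WT and 53.7 CPM in cKO. Chromosome 4, with the smallest, had 32.7 CPM in WT and 42.1 CPM in cKO. The part of coverage in the change was not tested. The median promoter level was 179 and 160 CPM in the WT libraries and 134 and 132 CPM in the cKO libraries (169 ± 13.8 against 133 ± 1.41, SD, n = 2 each, exact permutation p = 0.33). Both cKO libraries lay below both WT libraries. H3K4me3-only promoters went the other way, from 97.2 ± 0.851 to 116 ± 3.84 CPM, so that the excess of bivalent over H3K4me3-only promoters was 81.4 and 63.1 CPM in WT and 14.5 and 18.0 CPM in cKO. The excess was above 0 in all 4 libraries (exact sign-flip p = 0.125, the smallest possible with 4), and its ranges in the genotypes did not overlap (exact permutation p = 0.33). The same narrowing was seen when each promoter was set against its own outer flanks, the outermost 1 kb on each side of its 10 kb window: the excess in median log2 promoter over flank was 0.27 ± 0.06 in WT and 0.06 ± 0.03 in cKO. Measured that way, the bivalent promoters themselves had 0.37 ± 0.12 in WT and 0.36 ± 0.05 in cKO (exact permutation p = 1.0), while H3K4me3-only promoters went from 0.10 ± 0.06 to 0.30 ± 0.09. By the same measure H3K27me3-only promoters had 0.40 ± 0.09 in WT and 0.30 ± 0.07 in cKO, and in WT the bivalent promoters were not above them. The flanks of the bivalent promoters went from 65.5 ± 1.85 to 51.8 ± 1.28 CPM.

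Promoter by promoter, H2AK119ub1 fell at 127 of the 390 (32.6%) and rose at 11 (2.82%) by edgeR's quasi-likelihood test with Benjamini-Hochberg adjustment over all promoters, against 16.4% of all promoters called lower and 16.7% called higher. Those shares include promoters outside the autosomes, where no bivalent promoter lies by the rule. Of autosomal promoters alone, 13.7% were called lower and 17.3% higher. The median log2 change of cKO over WT was -0.33, against 0.02 over all tested and 0.04 over autosomal promoters. At H3K27me3-only promoters 215 of 558 were lower and 12 higher. At H3K4me3-only promoters 76 of 2073 were lower and 533 higher. Relative to the change in the flanks of the 20 nearest genes in the other 3 marks (called the regional offset below), 48 bivalent promoters were lower (12.3%) and 0 higher by edgeR, with a median of -0.22, where 6.22% of all promoters were called lower and 4.58% higher. Under the offset 8 of the 390 were higher at an unadjusted p below 0.05, and 107 lower. Without the offset, most of the 127 lower calls were lost when either cKO library was left out. The shares over all promoters in those fits are not given here, so the loss is not read as a trait of the bivalent class.

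The strongest H2AK119ub1 losses were at genes of different kinds. Sfrp1 (chr8:23409502-23413501, the 4 kb promoter in GRCm38), a secreted Wnt antagonist, had 279 and 256 CPM in WT and 107 and 137 CPM in cKO. Nptxr (chr15:79802767-79806766), a neuronal pentraxin receptor, had 249 and 219.9 CPM in WT and 103 and 109 CPM in cKO. Gfra1 (chr19:58453399-58457398), the GDNF co-receptor, had 289.7 and 266 CPM in WT and 131 and 126 CPM in cKO. In all 3 the WT libraries were about level and both cKO libraries far below. The log2 changes were -1.14 ± 0.20 (SE, edgeR adjusted p = 1.2e-06), -1.16 ± 0.20 (adjusted p = 1.0e-06) and -1.12 ± 0.20 (adjusted p = 1.6e-06), and with the regional offset -0.92, -0.86 and -0.63 (adjusted p = 4.2e-04, 0.0013 and 0.023). Ppp1r3d, a glycogen-targeting subunit of protein phosphatase, fell by 1.26 ± 0.22 on the log2 scale (edgeR adjusted p = 1.3e-06). The calls at Sfrp1, Nptxr, Gfra1 and Ppp1r3d were lost without cKO replicate 1, and that at Gfra1 also without cKO replicate 2. Sfrp1 held the highest WT H3K27me3 among the bivalent genes named here and lost H3K4me3 and H3K27ac as well, whereas Gfra1 lost H3K27me3 and gained both active marks. The outer H2AK119ub1 flanks of all promoters also fell in cKO on chromosome 8 (Sfrp1 and Cdyl2), from 67.8 to 53.7 CPM. They fell from 65.0 to 48.1 CPM on chromosome 15 (Nptxr) and from 64.1 to 46.0 CPM on chromosome 19 (Gfra1). The part of this in the losses was not tested.

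Cdyl2 (chr8:116730992-116734991), a chromodomain protein that reads methylated histone H3, was lower in all 4 marks. Its H2AK119ub1 was 186 and 183 CPM in WT and 17.9 and 52.5 CPM in cKO, and its H3K4me3 was 241 and 297 CPM in WT and 11.5 and 10.3 CPM in cKO. Its H3K27me3 was 147 and 133 CPM in WT and 38.3 and 44.6 CPM in cKO, and its H3K27ac was 121 and 155 CPM in WT and 23.6 and 16.5 CPM in cKO. None of the 4 marks overlapped between genotypes at this promoter. Igsf9b, an adhesion molecule of inhibitory synapses, had the same pattern, with H2AK119ub1 of 139.8 and 111 CPM in WT and 30.3 and 57.8 CPM in cKO and H3K4me3 of 152 and 174 CPM in WT and 18.9 and 13.2 CPM in cKO. Its H3K27me3 was 219.6 and 180.2 CPM in WT and 68.4 and 121 CPM in cKO, and its H3K27ac was 60.3 and 63.8 CPM in WT and 21.6 and 33.1 CPM in cKO.

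The 11 bivalent promoters that rose in H2AK119ub1 were few and lost the call under the regional offset. Plxdc1, a plexin domain transmembrane protein, had 125 and 119.3 CPM in WT and 207 and 216 CPM in cKO, a log2 change of 0.79 ± 0.20 (edgeR adjusted p = 0.0011) that became 0.04 with the offset. Slc39a11, a zinc transporter, and Tnrc6c, a component of miRNA silencing, also lie on chromosome 11, where the outer flanks of all promoters went from 50.7 to 60.7 CPM of H2AK119ub1. Whrn, a stereocilia scaffold on chromosome 4, rose by 0.71 ± 0.21 (edgeR adjusted p = 0.0041), and with the offset its change was -0.02.

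**Figure D2:**
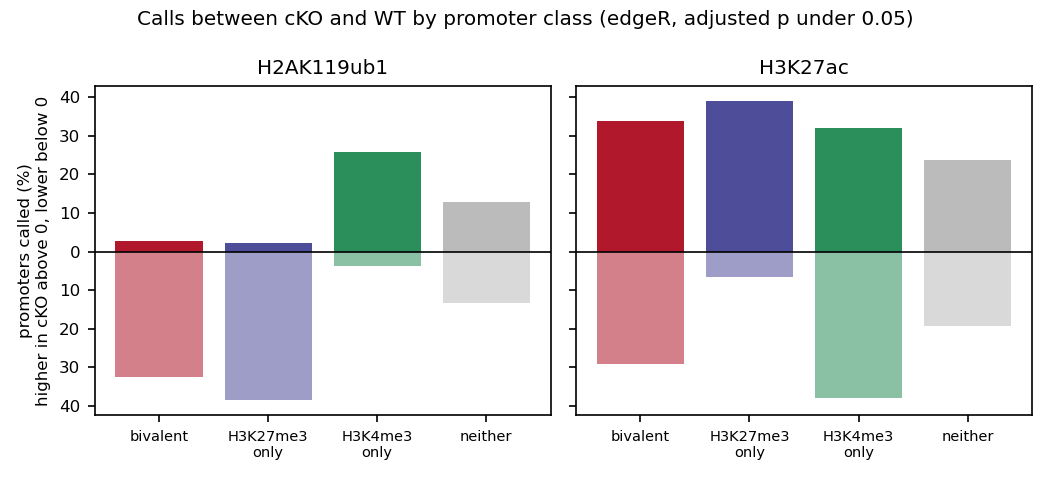
Share of promoters in each class called higher (above 0) or lower (below 0, paler) in cKO than in WT for H2AK119ub1 and H3K27ac, by edgeR at an adjusted p of 0.05. In H2AK119ub1, 32.6% of bivalent and 38.5% of H3K27me3-only promoters were called lower and 25.7% of H3K4me3-only promoters higher. In H3K27ac the bivalent shares, 33.8% higher and 29.2% lower, were near the 30.9% and 29.1% of all promoters. No regional offset was used in this figure. With it, 35.9% of bivalent promoters were higher in H3K27ac, against 26.7% of all.

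H3K27ac libraries were not used in the choice either, but the choice was not independent of this mark. The classes were cut on WT H3K4me3, whose medians were 33.7 CPM at H3K27me3-only, 185 CPM at bivalent and 287 CPM at H3K4me3-only promoters. H3K27ac flanks also went from 28.0 to 22.3 CPM on chromosome 8 and from 14.6 to 20.7 CPM on chromosome 4. The rank of the classes in H3K27ac is therefore a description. The median promoter level of H3K27ac was 98.4 ± 5.48 CPM in WT and 105 ± 3.79 CPM in cKO (n = 2 each, exact permutation p = 0.33). It lay between the H3K27me3-only (40.2 ± 1.24 in WT) and H3K4me3-only promoters (212 ± 1.95 in WT) in 4 of 4 libraries. By edgeR, 132 of the 390 rose (33.8%) and 114 fell (29.2%), against 30.9% of all promoters higher and 29.1% lower. Both shares were near the background in this fit. With the regional offset 140 were higher (35.9%), above the 26.7% of all promoters, and 91 lower (23.3%), near the 23.9% of all. At H3K27me3-only promoters the calls ran 1 way, with 218 of 558 higher and 37 lower. The deposited table marks each gene UP or DOWN, for a contrast that the labels do not name, and 189 of the 390 were marked UP (48.5%, against 48.8% of autosomal promoters). Of those 189, 125 rose in H3K27ac and 8 fell, and of the 201 marked DOWN, 7 rose and 106 fell. These counts were not taken over all promoters marked UP or DOWN, so they are not read as a trait of the bivalent class.

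Cd24a (chr10:43577169-43581168), a sialoglycoprotein of progenitor cell surfaces, had the clearest gain, with H3K27ac of 153 and 165 CPM in WT and 1073 and 1015 CPM in cKO. Ntn4 had 102 and 104 CPM in WT and 631 and 497 CPM in cKO, and the limb and head homeobox gene Otx1 (chr11:21999711-22003710) had 72.8 and 64.9 CPM in WT and 346 and 417 CPM in cKO. In each, both cKO libraries lay several times above both WT libraries. The log2 changes were 2.72 ± 0.14, 2.46 ± 0.16 and 2.47 ± 0.17 (edgeR adjusted p = 4.4e-17, 1.7e-14 and 5.9e-14). Slc16a6, a monocarboxylate transporter, rose by 3.09 ± 0.18 (edgeR adjusted p = 3.2e-16), to 432 and 404 CPM in the cKO libraries. Pcdh7 rose from 80.6 and 100.1 to 425 and 381 CPM, and Sh3rf3, a scaffold of JNK signalling, from 88.4 and 67.8 to 355 and 367 CPM. These 6 kept the call and the direction with the regional offset, with log2 changes of 2.46, 2.20, 2.61, 2.53, 2.01 and 2.10.

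On the losing side, Serpine2 had H3K27ac of 204 and 189 CPM in WT and 34.9 and 33.6 CPM in cKO, and Hoxc11 (chr15:102952427-102956426), a posterior limb homeobox gene, had 213 and 235 CPM in WT and 41.3 and 46.3 CPM in cKO. Plxnd1 had 279 and 256 CPM in WT and 83.6 and 80.7 CPM in cKO. The groups did not overlap in any of the 3, and the log2 changes were -2.51 ± 0.21, -2.35 ± 0.20 and -1.70 ± 0.17 (edgeR adjusted p = 3.4e-12, 3.9e-12 and 4.8e-10). Rasa3, a GTPase-activating protein of Ras, had the highest WT level of these genes, 684 and 685 CPM, and 249 and 241 CPM in cKO. Snx10, a sorting nexin, fell by 1.72 ± 0.20 (edgeR adjusted p = 3.8e-09). Rasa3 (112 and 131 CPM) and Snx10 (100.5 and 152 CPM) had WT H3K27me3 close to the cut and were not bivalent when CPM was scaled by the local flank level.

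**Figure D3:**
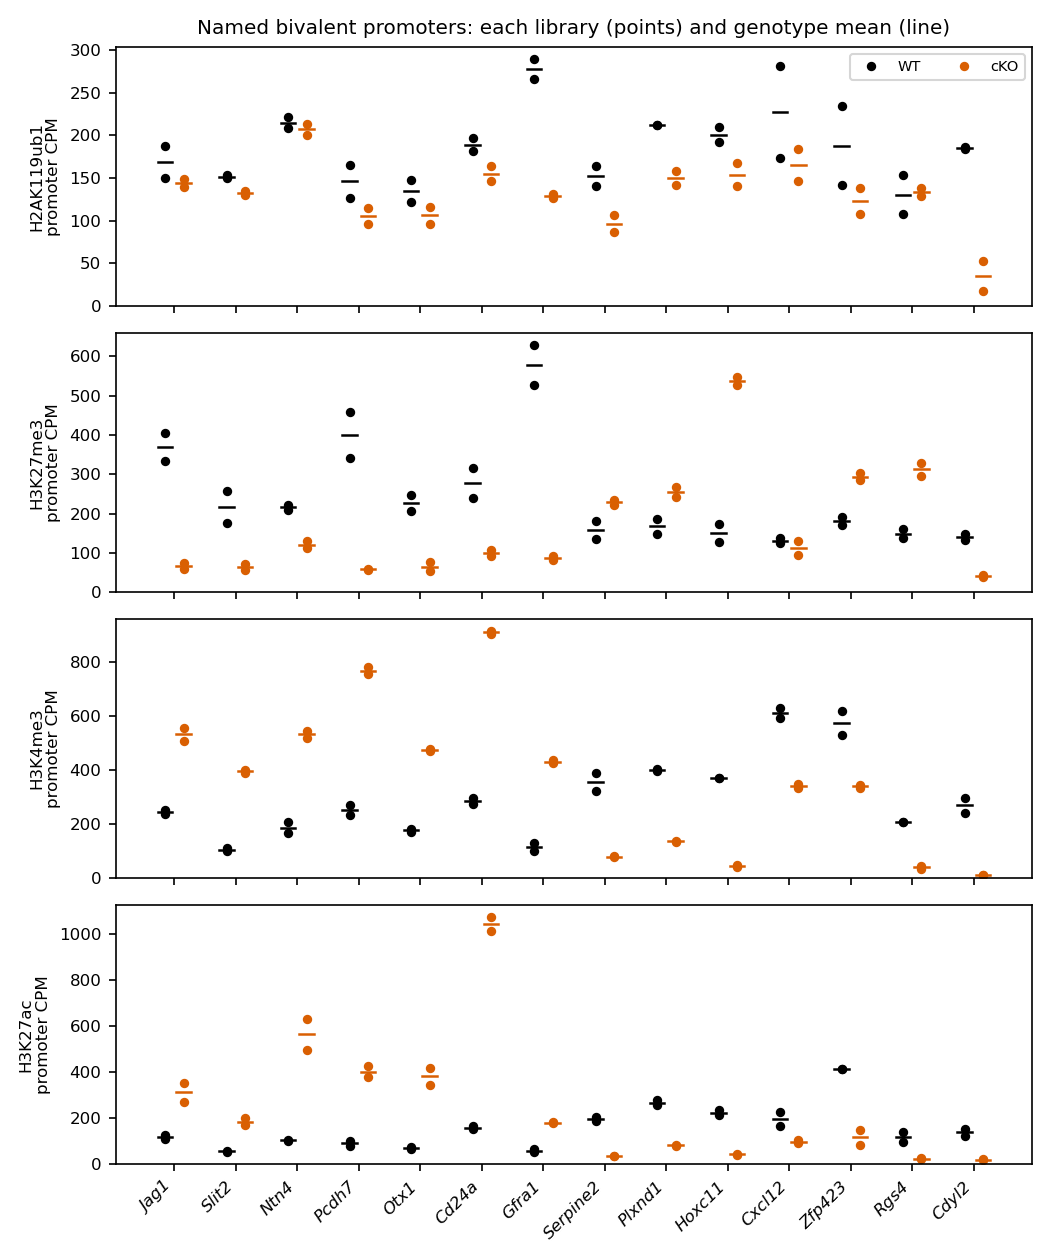
Promoter CPM in each library (points) and the mean of the 2 libraries (line) for 14 bivalent promoters, with 1 panel for each mark, WT in black and cKO in orange. The 7 genes on the left gained H3K27ac and H3K4me3 and lost H3K27me3, and the 7 on the right lost H3K27ac and H3K4me3.

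The calls of the other marks differed between the promoters that rose and those that fell in H3K27ac, and are given as a description. At the 132 promoters that rose in H3K27ac, H3K4me3 was called higher at 129 and lower at 0, and H3K27me3 lower at 94 and higher at 0, with median log2 changes of 1.10 and -1.02. At the 114 that fell in H3K27ac, H3K4me3 was lower at 94 and higher at 3, and H3K27me3 higher at 24 and lower at 16, with medians of -0.70 and 0.11. Of all promoters, whatever their H3K27ac call, 40.5% were called higher and 31.8% lower in H3K4me3, and 12.4% higher and 15.6% lower in H3K27me3. The same counts over all promoters that rose or fell in H3K27ac were not taken. The joint calls are therefore not read as a trait of the bivalent class. H2AK119ub1 was lower at 35 of the 132 and at 48 of the 114, with medians of -0.30 and -0.42. The median WT H2AK119ub1 was 166 CPM at the promoters that rose in H3K27ac and 168 CPM at those that fell.

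Over the whole class, H3K27me3 was called lower at 151 and higher at 35 of the 390, with a median log2 change of -0.42. Of all promoters 15.6% were lower and 12.4% higher, and of autosomal promoters alone 13.7% and 12.9%. H3K4me3 was called higher at 195 and lower at 132 (40.5% and 31.8% of all promoters), with a median of 0.21. Nothing is read from these counts, since the WT libraries that enter them chose the promoters. Fewer were called in H3K27me3, in either direction, when a cKO library was left out. The shares over all promoters in those fits are not given here. Among the genes marked UP, H3K27me3 was called lower at 63.0% of 189 and higher at 4 promoters, and among those marked DOWN, lower at 32 of 201 and higher at 31. The shares over all promoters marked UP or DOWN were not taken here either. With the autosomal totals unscaled by TMM, which shifts the median of all promoters by 0.10 on the log2 scale, H3K4me3 was higher at 175 and lower at 150.

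The same measure was therefore taken in a WT library that had no part in the choice. This takes out only the noise of the choosing library. The held-out library is of the genotype in which the promoters were chosen as high, so a lower level in cKO is favoured in advance. In the fit of all libraries, H3K4me3-only promoters, chosen below the WT H3K27me3 cut, were called higher in H3K27me3 at 17.9% and lower at 1.64%. No set chosen in cKO was tested, and no conclusion is drawn. Chosen on WT replicate 1, 388 promoters were bivalent, and against WT replicate 2 alone H3K27me3 was lower in cKO at 116 (29.9%) and higher at 61 (15.7%), where 12.1% and 11.2% of all promoters were called lower and higher by edgeR. Chosen on WT replicate 2, 425 were bivalent, and against WT replicate 1 H3K27me3 was lower at 161 (37.9%) and higher at 39 (9.18%), where 16% and 11.5% of all were called. H3K4me3 was higher at 180 and lower at 126 of the 388 (38.9% and 29.1% of all promoters), and higher at 188 and lower at 152 of the 425 (37.7% and 31% of all). Without TMM factors these H3K4me3 counts were 162 and 150, and 175 and 171. With the regional offset H3K27me3 was lower at 106 of the 388 (9.94% of all promoters) and higher at 65 (8.29%), and lower at 143 of the 425 (13.2%) and higher at 50 (8.65%). In these fits the lone WT library is assumed to vary like the cKO libraries.

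When the same rule was applied to the cKO libraries, 169 of the 390 (43.3%) were bivalent there, 152 (39.0%) had H3K4me3 alone, 55 (14.1%) had H3K27me3 alone and 14 had neither. Between the 2 WT replicates, 303 promoters were shared, 78.1% of the 388 and 71.3% of the 425. Between single WT and single cKO libraries the shared part was 39.5% to 44.1% of the WT list. The cKO libraries gave a longer list, 545 promoters, of which the 169 are 31.0%. Most promoters that went to H3K4me3 alone were marked UP (118 of 152), and most that went to H3K27me3 alone were marked DOWN (51 of 55). How the marks run with such shifts outside the bivalent class was not counted.

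The largest opposite shifts show both outcomes. Mn1 (chr5:111415442-111419441), a transcriptional coregulator, had H3K27me3 of 319 and 318 CPM in WT and 76.6 and 56.5 CPM in cKO and H3K4me3 of 176 and 161 CPM in WT and 735 and 716 CPM in cKO. Jag1 had H3K27me3 of 405 and 334 CPM in WT and 74.7 and 58.6 CPM in cKO and H3K4me3 of 236 and 253 CPM in WT and 555 and 508 CPM in cKO. In both, H3K27me3 in cKO was a small part of its WT level in each library. Gfra1, Pcdh7, the zinc finger gene Zfp467 and Lrrc8d, a subunit of volume-regulated anion channels, went the same way, with log2 changes of H3K27me3 of -2.82, -2.88, -2.62 and -2.27.

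The reverse was seen at Hoxc11, whose H3K27me3 was 128 and 174 CPM in WT and 547 and 527 CPM in cKO and whose H3K4me3 was 369 and 372 CPM in WT and 48.6 and 40.5 CPM in cKO. Rgs4 had H3K27me3 of 159.7 and 138 CPM in WT and 329.5 and 296 CPM in cKO and H3K4me3 of 207 and 206 CPM in WT and 34.5 and 44.5 CPM in cKO. Dact2, a Wnt pathway modulator, and Phf21b, a PHD finger protein, followed, with log2 changes of H3K27me3 of 1.02 and 1.19 and of H3K4me3 of -1.67 and -1.32. Phf21b stayed bivalent in cKO, and Hoxc11, Rgs4 and Dact2 had H3K27me3 alone.

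**Figure D4:**
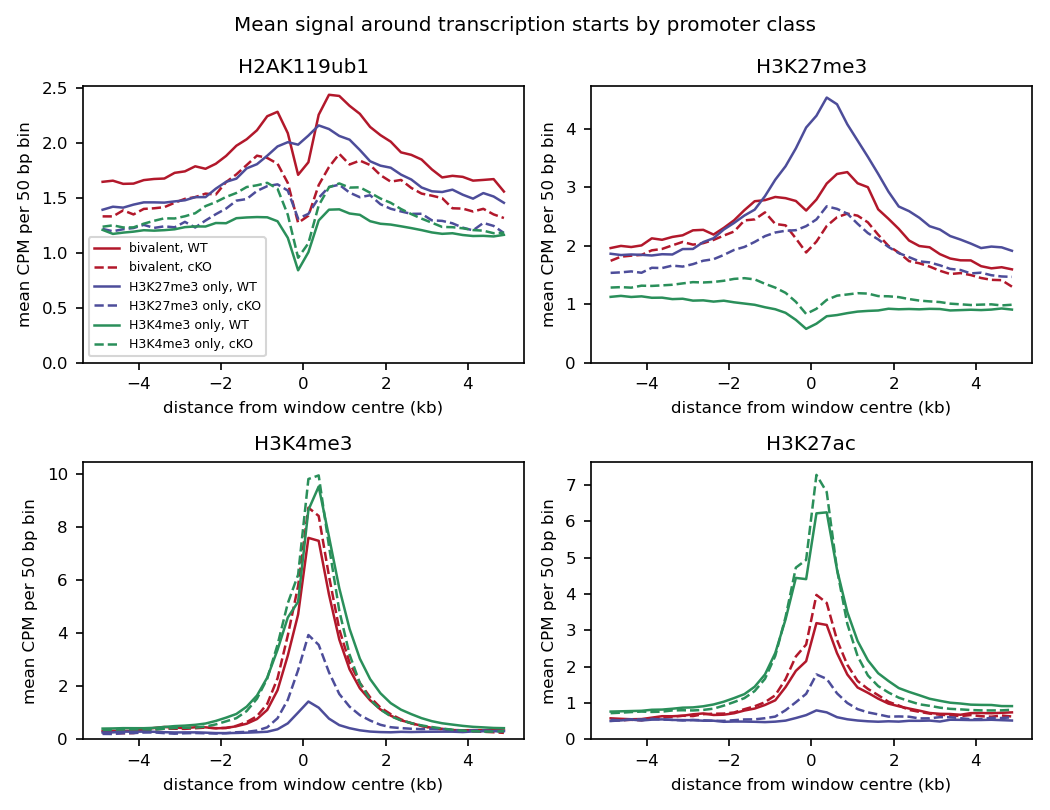
Mean CPM per 50 bp bin against distance from the window centre (kb) for the 4 marks, with 3 promoter classes in colour, WT as solid and cKO as dashed lines, averaged over promoters and over 2 libraries. The bivalent promoters dip at the start in H2AK119ub1 and H3K27me3, as do the H3K4me3-only promoters, where the H3K27me3-only promoters in WT are level or peak.

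The Polycomb marks dipped over the start of the bivalent promoters. H2AK119ub1 within 200 bp of the start, relative to 500 to 1000 bp away, was -0.44 ± 0.04 on the log2 scale in WT, against 0.00 ± 0.02 at H3K27me3-only promoters, and lower in 4 of 4 libraries, with differences of -0.45 to -0.21 (exact sign-flip p = 0.125). The dip was deeper at H3K4me3-only promoters, at -0.60 ± 0.00 in WT and -0.72 ± 0.04 in cKO, and bivalent promoters lay above them in 4 of 4 libraries, by 0.13 to 0.22 (exact sign-flip p = 0.125). In cKO it was -0.53 ± 0.02 at bivalent and -0.30 ± 0.01 at H3K27me3-only promoters. H3K27me3, described without a test, had a ratio of -0.19 ± 0.02 in WT, between 0.14 ± 0.04 at H3K27me3-only and -0.50 ± 0.00 at H3K4me3-only promoters. H3K4me3 lay mainly downstream, with 29.3% ± 0.286 of promoter counts upstream of the start. H3K27ac lay between the neighbouring classes in width, with 41.1% ± 0.172 of the window's counts within 1 kb in WT, against 23.2% ± 0.504 at H3K27me3-only and 48.9% ± 1.25 at H3K4me3-only promoters. In cKO the shares were 45.5% ± 0.703, 33.8% ± 0.596 and 53.9% ± 0.444.

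For the lists that follow, 30.9% of all promoters were called higher and 29.1% lower in H3K27ac, 40.5% and 31.8% in H3K4me3, and 16.7% and 16.4% in H2AK119ub1, and with so few members per list nothing is read from their shares. Among the developmental transcription factors, H3K27ac rose at 4 of the 11 bivalent members and fell at 5, and H2AK119ub1 fell at 2 and rose at 0 (3, 4, 0 and 0 with the regional offset). Over all 43 measured, H3K27ac rose at 13 and fell at 20. Foxf1 (chr8:121082386-121086385), a forkhead factor of lateral mesoderm, had H3K27me3 of 743 and 683 CPM in WT and 195 and 205 CPM in cKO and H3K27ac of 47.7 and 24.9 CPM in WT and 150.4 and 218 CPM in cKO. It also lost H2AK119ub1, with a log2 change of -0.83 ± 0.20 (edgeR adjusted p = 4.3e-04), which became -0.45 with the regional offset (adjusted p = 0.13). Gli2, an effector of Hedgehog signalling, rose in H3K27ac by 0.70 ± 0.23 (edgeR adjusted p = 0.0094), while Gli1, a target and amplifier of the pathway, had a change of 0.45 that was not called (adjusted p = 0.073). Snai1, a repressor of epithelial genes, fell by 1.53 ± 0.21 in H3K27ac (edgeR adjusted p = 1.9e-07). Dlx1, a homeobox gene, fell by 0.92 ± 0.21 (edgeR adjusted p = 2.4e-04), and its H3K27me3 went from 249.6 and 194 to 390.4 and 419 CPM. Gata6, a zinc finger factor of endoderm and mesoderm, had H3K27me3 of 810.4 and 599 CPM in WT and 554 and 488 CPM in cKO, not called.

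Among secreted signals and their receptors, H3K27ac rose at 5 of the 12 bivalent members and fell at 2, and H2AK119ub1 fell at 5 and rose at 0 (6, 2, 2 and 0 with the regional offset). Over all 50 listed genes measured, H3K27ac rose at 19 and fell at 12. Jag1 rose by 1.42 ± 0.17 in H3K27ac (edgeR adjusted p = 1.7e-08), and Bmper, a secreted modulator of BMP, by 1.39 ± 0.21 (adjusted p = 7.7e-07). Fgfr3, a receptor that restrains bone growth, had H3K27ac of 47.4 and 36.5 CPM in WT and 99.8 and 127 CPM in cKO, and Spry1, an inhibitor of receptor tyrosine kinases, had H3K27me3 of 544 and 393 CPM in WT and 102 and 61.4 CPM in cKO. Both groups of libraries were apart in each. Vegfc, the lymphatic growth factor, fell by 1.05 ± 0.20 in H3K27ac (edgeR adjusted p = 2.5e-05). Wnt9a, a Wnt ligand of joints, and Fst, an activin antagonist, were not called in H3K27ac, with log2 changes of 0.30 and -0.05.

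Axon guidance genes gave 4 rises and 2 falls in H3K27ac among 9 bivalent members (4 and 1 with the regional offset), and 14 and 4 among 30 listed. Slit2 had H3K27ac of 55.5 and 54.8 CPM in WT and 199 and 169 CPM in cKO and H3K4me3 of 99.4 and 110.2 CPM in WT and 390.0 and 402 CPM in cKO. Efna1 and Efna4, neighbouring ephrin ligands, rose by 1.34 ± 0.16 and 0.95 ± 0.18 in H3K27ac (edgeR adjusted p = 1.5e-08 and 3.9e-05). The Eph receptors gave other calls. Epha4 and Ephb3 fell in H2AK119ub1 by 0.88 ± 0.20 and 0.68 ± 0.20 (edgeR adjusted p = 2.3e-04 and 0.0047) and were not called in H3K27ac, and Ephb6 fell in H3K27ac by 0.68 ± 0.19 (adjusted p = 0.0031), a call that was lost with the regional offset (adjusted p = 0.099). Unc5b, a netrin receptor, was called in H3K4me3 alone, with a log2 change of -0.32 that became 0.01 over 1 kb on each side of the start, and its H2AK119ub1 was 200.4 and 210.0 CPM in WT and 199 and 196 CPM in cKO.

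Adhesion, channel and synaptic genes had 4 rises and 1 fall in H3K27ac among 6 bivalent members, and 8 and 3 among 26 listed. Cdh11, the cadherin of mesenchymal cells, had H3K4me3 of 118 and 141 CPM in WT and 482 and 492 CPM in cKO and H3K27ac of 75.9 and 75.7 CPM in WT and 199 and 229.8 CPM in cKO. Its H3K27ac rose by 1.50 ± 0.18 (edgeR adjusted p = 1.8e-08). Pcdh18, a protocadherin, and Syt12, a synaptotagmin, rose by 1.39 ± 0.19 and 0.90 ± 0.18 (adjusted p = 1.9e-07 and 5.7e-05), and Elfn1, a synaptic organiser, fell by 0.52 ± 0.17 (adjusted p = 0.0089).

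From the lineage lists, 2 osteoblast, 3 adipocyte and 1 cartilage gene were bivalent. Both bivalent osteoblast genes, Smpd3, a sphingomyelinase of mineralising matrix, and Enpp1, which makes the mineralisation inhibitor pyrophosphate, had lower H3K4me3, with log2 changes of -0.89 and -0.24, the latter 0.04 over 1 kb on each side of the start. Of 10 osteoblast genes measured, H3K4me3 fell at 9 and H3K27ac at 6, with 0 rises in either. Zfp423 had H3K27ac of 413 and 413 CPM in WT and 84.9 and 148 CPM in cKO, and Lpl, lipoprotein lipase, of 105 and 99.8 CPM in WT and 28.0 and 41.6 CPM in cKO. Both fell (edgeR adjusted p = 5.9e-09 and 2.8e-06). Of 11 adipocyte genes measured, H3K4me3 rose at 5 and fell at 5, and H3K27ac rose at 3 and fell at 6. Cebpa, a master factor of fat cells, rose by 0.51 ± 0.17 in H3K27ac (edgeR adjusted p = 0.0085), but its change was 0.18 with the regional offset (adjusted p = 0.38). Col11a1, a cartilage collagen, rose by 1.14 ± 0.23 (adjusted p = 5.1e-05).

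Of 19 blood niche factors measured, 3 were bivalent, and they went 3 ways. Jag1 gained active marks as above. Cxcl12 had H3K4me3 of 631 and 594 CPM in WT and 332 and 347 CPM in cKO and H3K27ac of 229 and 167 CPM in WT and 91.6 and 104 CPM in cKO. Its H3K27ac fell by 1.01 ± 0.19 (edgeR adjusted p = 2.2e-05; -0.63 with the regional offset, adjusted p = 0.0054). Its WT H3K27me3, 137 and 125 CPM, was close to the cut, and it was not bivalent when CPM was scaled by region. Dll1, a Notch ligand, was called in H2AK119ub1, with a log2 change of -0.52 ± 0.20 (edgeR adjusted p = 0.033), and in no other mark. Over the 19 listed factors, H3K27ac fell at 11 and rose at 2.

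Of 9 measured genes of the Polycomb and Trithorax machinery, 2 were themselves bivalent. Epop, a PRC2-associated protein, had H3K27me3 of 678 and 525 CPM in WT and 739 and 811 CPM in cKO, not called, and rose in H3K27ac by 0.75 ± 0.20 (edgeR adjusted p = 0.0016), but its change was 0.08 with the regional offset (adjusted p = 0.77). Cbx6, a reader of H3K27me3 in PRC1, fell in H3K27ac by 1.26 ± 0.21 (adjusted p = 4.7e-06).

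Some of these calls rested on single libraries. The H2AK119ub1 calls at Foxf1, Epha4, Ephb3 and Dll1 were lost without either cKO library. The H3K27ac calls at Gli2 and Ephb6 were lost without cKO replicate 2, those at Gli2, Cebpa and Elfn1 without WT replicate 1, and those at Elfn1 and Ephb6 without WT replicate 2. Elfn1 also lost the call without cKO replicate 1.

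**Figure D5:**
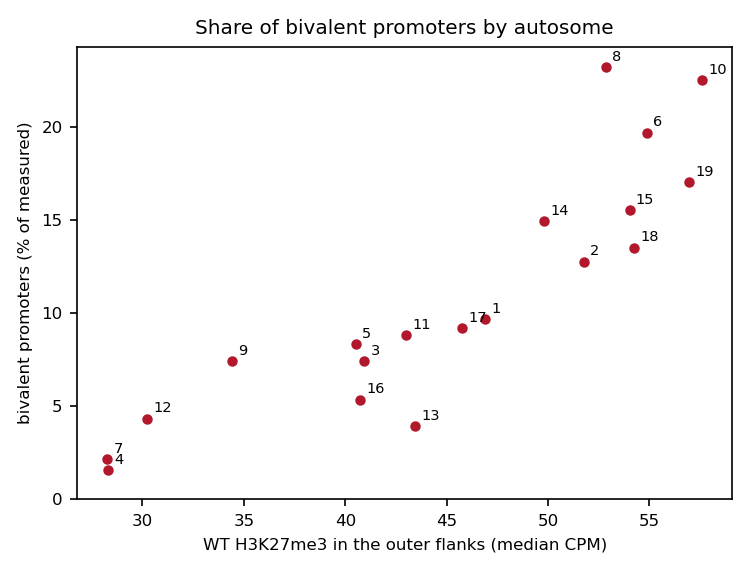
Share of measured promoters that were bivalent (vertical, percent) against the median WT H3K27me3 of the outer flanks (horizontal, CPM), with 1 point for each of 19 autosomes, numbered. Autosomes with more flank signal had larger shares, from 1.55% on chromosome 4 to 23.2% on chromosome 8.

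Bivalent promoters were spread unevenly over the autosomes, and the spread moved with the coverage of the flanks. The share was 23.2% on chromosome 8 (49 of 211), 22.5% on chromosome 10 (41 of 182) and 19.7% on chromosome 6 (40 of 203), but 1.55% on chromosome 4 (5 of 323) and 2.14% on chromosome 7 (7 of 327). The median outer flank in WT H3K27me3 was 52.9, 57.6 and 54.9 CPM on chromosomes 8, 10 and 6, and 28.3 CPM on both chromosomes 4 and 7. The 3 chromosomes of high share were also above the other 2 in the flanks of a mark of active promoters, with WT H3K4me3 of 11.8, 11.1 and 11.1 CPM against 5.69 and 5.64 CPM. In cKO the H3K27me3 flanks of chromosomes 4 and 7 were 39.4 and 36.5 CPM.

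The rule was therefore repeated on CPM divided by the local flank level of the same genotype in the other 3 marks, an alternative chosen after seeing the data. It gave 359 promoters, of which 279 were shared (71.5% of the 390 and 77.7% of the 359), and the share per autosome then ran from 6.11% on chromosome 16 to 13.0% on chromosome 9. At the 279 promoters bivalent by both rules, H2AK119ub1 was lower at 90 (32.3%, 16.4% of all promoters) and higher at 7 (2.51%, 16.7% of all). H3K27ac was higher at 109 (39.1%, 30.9% of all) and lower at 70 (25.1%, 29.1% of all). With the regional offset H2AK119ub1 was lower at 36 (12.9%, 6.22% of all) and higher at 0 (4.58% of all). H3K27ac was then higher at 114 (40.9%, 26.7% of all) and lower at 61 (21.9%, 23.9% of all). At the 359 promoters themselves, without the offset, H3K27ac was higher at 151 (42.1%) and lower at 79 (22.0%). Among the genes named above, Sfrp1, Mn1, Jag1, Slit2, Ntn4, Pcdh7, Otx1, Cd24a, Serpine2, Plxnd1, Rgs4 and Zfp423 were bivalent by both rules, and Gfra1, Hoxc11, Cxcl12, Foxf1, Cdh11, Cdyl2, Epop and Cbx6 were not.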

How the data were processed

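ChIP-seq was done for 4 histone marks in endosteal stromal cells, with 2 libraries per mark and genotype (WT and Bap1 cKO). The authors deposited counts for each mark in 200 bins of 50 bp over 10 kb around each of 3925 gene starts, per the file headers. Reads were trimmed with cutadapt 1.18, aligned to GRCm38 with Bowtie2 2.4.5, and handled with Picard 2.25.5, SAMtools 1.9 and bedtools 2.30.0, per the submitters' processing notes. Most reads were counted in 3 neighbouring bins (98.32% of short runs of filled bins span 3), so depth in reads was taken from 1 bin in 3. The bulk of the genome is not in the deposited counts, and every value is relative to these windows: a change common to all windows cannot be seen.

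Counts within 2 kb of the start were summed and tested with edgeR 4.0.16 (R 4.3.3, limma 3.58.1) by its quasi-likelihood test with TMM factors and a count minimum of 10, with Benjamini-Hochberg adjustment over all promoters of a mark and a threshold of 0.05. All 390 bivalent promoters passed the minimum in all 4 marks. The fit was also run on simulated data, but the outcome is not given here and no call rests on it. Symbols came from RefSeq starts within 500 bp (3417 of 3925). Alternatives were DESeq2 1.42.0, other scalings, windows and member rules, and leaving out each library. Same-numbered libraries shared only a number (correlations of their deviations between -0.038 and 0.111). The members and gene lists were chosen with earlier results of these data known. Named genes were, per mark, the 6 called members of lowest p in each direction with libraries that did not overlap, the 5 largest opposite shifts each way, the most bivalent, those nearest the cuts and the 3 members of lowest H3K27ac p in each list. Other list members and the 8 sequences were chosen after their values were seen. Bap1 is not reported here.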

Additional observations from a re-analysis of the deposited data

How the results depend on the processing

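H2AK119ub1 was the mark most sensitive to processing. Against 127 lower and 11 higher, the counts were 76 and 1 over 1 kb on each side of the start, and 48 and 0 with the regional offset. Among promoters chosen on regionally scaled CPM, an alternative added after seeing the data, 25 were higher, and with the offset as well 46 were lower and 0 higher. Leaving out single libraries gave 1 to 138 lower and 0 to 14 higher by edgeR, and a lone library is then assumed to vary like the other genotype. For H3K27me3 (151 lower, 35 higher) these ranges were 93 to 163 and 16 to 50, and for H3K27ac lower (114) 74 to 100. The stricter rule of the top 15% of H3K27me3 and the median of H3K4me3 left 86 promoters, with 3 higher in H3K27me3 and 0 higher in H2AK119ub1. With the libraries titled H3K27ac in place of H3K4me3, 289 promoters were chosen, 260 of them shared, and H3K27ac was higher at 76 and lower at 114. The held-out count of H3K27me3 higher was 61 or 39, by the WT replicate that chose. Of 199 calls at named genes, 199 held with a replicate block, which gave 14 higher and 131 lower in H2AK119ub1 and 136 and 117 in H3K27ac. DESeq2 kept 196, totals without TMM factors 195, the 1 kb window 176 and the regional offset 160, and leaving out single libraries kept 152 to 184. Under the regional offset the log2 change reversed for Cebpa H3K4me3 (-0.13), Dmxl2 H3K4me3 (-0.11), Whrn H3K4me3 (-0.20) and Whrn H2AK119ub1 (-0.025). Over 1 kb it reversed for Enpp1 H3K4me3 (0.039) and Unc5b H3K4me3 (0.0093). The cause was not tested.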
